A study of Homo sapiens with 16 samples.

Results

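The RAS, R-RAS, RHEB and RAP1 genes encode small GTPases, and 9 of them, NRAS, HRAS, RRAS, RRAS2, MRAS, RHEB, RHEBL1, RAP1A and RAP1B, were followed by symbol through all libraries of this series, out of 58302 gene identifiers in the count tables. They were chosen by name, as a family in which NRAS and RHEBL1 had been seen to be higher in polysomes after Gemin5 silencing. The Polysome libraries were therefore used to select them, and values of members in the Polysome contrast are given without a test. All 9 passed the filter on low counts in each comparison.

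Gemin5, encoded by GEMIN5, is an RNA-binding protein of the machinery that assembles spliceosomal snRNPs, and it also takes part in translation. It was silenced with an siRNA in HEK293, a line derived from human embryonic kidney (siRNAG5), and compared with cells in which it was not targeted (Ctrl). RNA was sequenced from cytoplasmic lysates (Input) and from the pooled heavy fractions of sucrose gradients, which hold mRNAs carrying several ribosomes (Polysome), giving 4 groups of 4 libraries. The study's methods give Ctrl cells a control siRNA, while the sample labels list these cells as untreated. All groups were unedited cells of this 1 line, transiently transfected where the siRNA was used.

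Small GTPases switch between a GDP-bound resting form and a GTP-bound form that binds effectors. Exchange factors (GEFs) load GTP, GTPase-activating proteins (GAPs) speed its hydrolysis, and lipid groups at the C terminus hold most of these proteins on membranes. NRAS and HRAS are classical RAS proteins that carry growth factor signals to the RAF kinases and to PI3 kinase. RRAS, RRAS2 and MRAS form the R-RAS branch, of which RRAS is best known for integrin adhesion and MRAS for its part in a phosphatase complex that acts on RAF. RHEB, held inactive by the tuberous sclerosis complex, switches on the growth kinase complex mTORC1, and RHEBL1 is its close relative. RAP1A and RAP1B control integrins and cell junctions.

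The members were separated well by sequence, which matters for counts of near copies. Between the proteins of a pair, the translated canonical transcripts gave identities of 95.1% for RAP1A and RAP1B, 85.2% for NRAS and HRAS, 65.2% for RRAS and RRAS2 and 52.5% for RHEB and RHEBL1. The coding sequences had identities of 83% for RAP1A and RAP1B, 73.5% for NRAS and HRAS, 64.2% for RRAS and RRAS2 and 61% for RHEB and RHEBL1. The longest stretch of coding sequence that both genes of a pair share exactly is shown here, because a read can be assigned to one paralog only where the sequences differ.
NRAS/HRAS: tacagggagcagat
RRAS2/RRAS: accatccagttcatccagtccta
RHEBL1/RHEB: cttgtgtattctgt
RAP1B/RAP1A: gagcaatttacagcaatgagggattt
These runs measured 14, 23, 14 and 26 bases. The RAP1 run lies in 1 exon of each gene, at chr12:68654112-68654137 (plus strand) for RAP1B and chr1:111703336-111703361 (plus strand) for RAP1A in GRCh38. The RHEB run lies at chr12:49066634-49066647 (minus strand) for RHEBL1 and chr7:151477348-151477361 (minus strand) for RHEB, and the other pairs' runs cross an exon junction.

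Windows of 100 bases of the canonical transcripts were searched for in the transcripts of all other genes. None of NRAS, HRAS, RRAS, MRAS, RHEBL1 or RAP1A was shared, against 5.97% of the windows of RRAS2, 8.17% of those of RHEB and 1.84% of those of RAP1B. RRAS2 shared its windows with a processed pseudogene, RRAS2P1, and RHEB with RHEBP1 and RHEBP2. The pseudogenes drew few reads. RHEBP2 had 105, 181, 121 and 229 reads in the sums over Input Ctrl, Input siRNAG5, Polysome Ctrl and Polysome siRNAG5, where RHEB itself had 13092, 17836, 18090 and 25420.

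The study looked at mRNAs that start with a terminal oligopyrimidine (TOP) tract, a C at the cap followed by pyrimidines, and the first 20 bases of the canonical transcripts are given with their GRCh38 positions.
NRAS, chr1:114716752-114716771, minus strand: ggggccggaagtgccgctcc
HRAS, chr11:535557-535576, minus strand: aggcccgcccgagtctccgc
RRAS, chr19:49640124-49640143, minus strand: ggctcccccgcaggcggtag
RRAS2, chr11:14359164-14359183, minus strand: agacggccatttgtggcggc
RHEB, chr7:151519876-151519895, minus strand: gggagggtcatgacgcagcg
RHEBL1, chr12:49069960-49069979, minus strand: gttagacgtgctgtgttgtg
RAP1B, chr12:68610899-68610918, plus strand: gacatcgccaaacctcgccc
None of these, nor the starts of MRAS and RAP1A, opened with C and at least 4 further pyrimidines at the annotated base, a pattern held by 919 of 20046 protein-coding canonical transcripts (4.58%). The base at which transcription starts in HEK293 may differ from the annotated one.

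Each library held 11145324 to 24511299 reads counted on genes. GEMIN5 fell in Input from between 15.9 and 20.7 CPM (counts scaled to a fixed number of reads) in Ctrl to between 6.22 and 7.46 in siRNAG5, and in Polysome from between 5.5 and 9.28 to between 2.1 and 3.08. Levels in CPM are scaled by TMM (trimmed mean of M values) over the 16 libraries. Polysome libraries had 21.2 to 42.4% of their reads aligned to several places, against 4.88 to 6.04% in Input. The summed level of 6 genes of liver (ALB, APOA1, APOB, SERPINA1, FGA and TF), a tissue other than that of the line, was 60.5 to 124 CPM in the Polysome Ctrl libraries and 99.6 and 112 CPM in Input Ctrl 4 and 3, and 0.165 to 1.69 CPM in the other 10. In Polysome this difference cannot be told apart from silencing, and its part in the values of the members was not tested there.

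Levels of different genes were compared per kilobase of exon. In Input Ctrl, RHEB (81.7 ± 4.44 CPM per kb, SD, n = 4) and HRAS (73.5 ± 5.93) stood far above the rest, and their libraries overlapped. RRAS (14.9 ± 2.05), RAP1A (12.0 ± 1.06), RRAS2 (9.24 ± 0.711) and NRAS (7.15 ± 0.72) followed, of which RRAS and RAP1A overlapped each other. RAP1B (3.47 ± 0.164), RHEBL1 (1.5 ± 0.258) and MRAS (1.11 ± 0.192) were lowest, and the libraries of RHEBL1 and MRAS just overlapped, the lowest of RHEBL1 being 1.23 and the highest of MRAS 1.24. RHEBL1 was therefore scarce beside RHEB, its paralog.

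The order changed with the group. HRAS was at 42.3 ± 2.96 CPM per kb in Input siRNAG5, 45.7 ± 8.63 in Polysome Ctrl and 20 ± 7.76 in Polysome siRNAG5, where RRAS, at 24.0 ± 6.93, overlapped it. RHEB stayed first in all 4 groups, with 73.0 ± 4.31, 90.9 ± 16.5 and 79.5 ± 12.0 in these 3 groups. NRAS, at 7.15 in Input Ctrl, was at 12.7 ± 0.75 in Polysome siRNAG5, where its libraries overlapped those of RRAS2 (14.2 ± 0.883) and RAP1A (13.5 ± 1.56). With the canonical transcript as length, HRAS (167 CPM per kb) stood above RHEB (141) in Input Ctrl. On that length the means of HRAS and RRAS in Polysome siRNAG5 were 45.5 and 26.8. The exon length of RAP1B, 16926 bases over all annotated transcripts and 13378 in the canonical one, depends on the annotation, and its level per length with it.

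**Figure D1:**
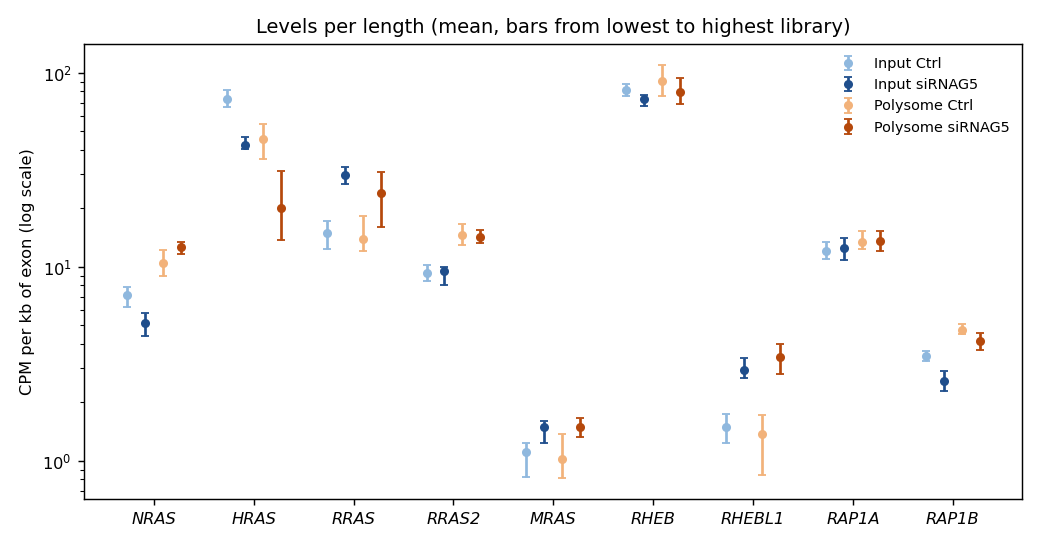
Levels of the 9 members per kilobase of exon on a log scale in the 4 groups, as the mean of 4 libraries with bars from the lowest to the highest library. RHEB stayed at the top between 73.0 and 90.9 CPM per kb, while HRAS went from 73.5 in Input Ctrl to 20 in Polysome siRNAG5. The order depends on the length used. With the canonical transcript as length, HRAS (167) was above RHEB (141) in Input Ctrl and was at 45.5 in Polysome siRNAG5.

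The first question was whether the amount of each mRNA in the lysate changed on silencing. In Input, HRAS was called lower and RRAS and RHEBL1 were called higher, and their paralogs were not called. NRAS, the paralog of HRAS, was lower as well, but by less than the limit for a call. A change was called at an edgeR quasi-likelihood adjusted p (Benjamini-Hochberg over all genes tested) under 0.05 and a log2 fold change (FC) beyond 0.5. Of 9 members, 2 were called higher, where 10.5% of the 14134 genes tested were, and 1 was called lower, where 6.02% were.

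HRAS, which relays receptor signals from the plasma membrane and from endomembranes, had 162, 197, 179 and 176 CPM in the Input Ctrl libraries and 99.0, 101, 113 and 97.9 in Input siRNAG5. All siRNAG5 libraries were below all Ctrl libraries. The log2 FC was -0.78 (SE 0.07, edgeR adjusted p = 1.04e-09).

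RRAS, an adhesion regulator, had 13.6, 15.8, 18.9 and 17.5 CPM in Input Ctrl and 34.7, 35.9, 29.4 and 31.3 in Input siRNAG5. The groups stood apart, and the level was 2.01 times higher (log2 FC 1.01, SE 0.10, edgeR adjusted p = 7.29e-09). RHEBL1 was scarce, with 2.19, 1.72, 1.60 and 2.27 CPM in Input Ctrl, from 18 to 24 reads a library, and 3.60, 3.69, 3.49 and 4.42 in Input siRNAG5, from 54 to 84 reads. Its groups did not overlap either (log2 FC 0.99, SE 0.20, edgeR adjusted p = 0.000198). These Input libraries did not themselves enter the choice of RHEBL1, but the study took Input and Polysome RNA from the same lysates. The higher Input level of RHEBL1 is therefore not independent of that choice.

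NRAS, in contrast, was lower in Input. Its levels were 34.1, 31.8, 26.7 and 31.2 CPM in Ctrl and 19.0, 25.0, 23.2 and 21.5 in siRNAG5, with no overlap. The log2 FC of -0.47 (SE 0.10, edgeR adjusted p = 0.000303) was short of the 0.5 needed for a call. RAP1B had 57.9, 62.3, 55.6 and 59.0 CPM in Ctrl and 38.9, 44.4, 43.0 and 49.2 in siRNAG5, also with no overlap, and a log2 FC of -0.41 (SE 0.08, edgeR adjusted p = 0.000167). Counting these, 3 members had siRNAG5 libraries all below the Ctrl libraries, where 19.1% of genes did, and 2 all above, where 15.1% did.

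The other 4 members were not called. MRAS had 5.16 to 7.77 CPM in Ctrl and 7.73 to 10.1 in siRNAG5, so that the groups overlapped, with a log2 FC of 0.45 (SE 0.14, edgeR adjusted p = 0.0109). For RHEB the log2 FC was -0.15 (SE 0.06, edgeR adjusted p = 0.0685), from 269 to 308 CPM in Ctrl and 237 to 269 in siRNAG5. RRAS2 (log2 FC 0.05, SE 0.09) and RAP1A (0.07, SE 0.08) had edgeR adjusted p-values of 0.693 and 0.511, and both values turned to -0.03 and -0.02 with 2 Ctrl libraries left out.

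**Figure D2:**
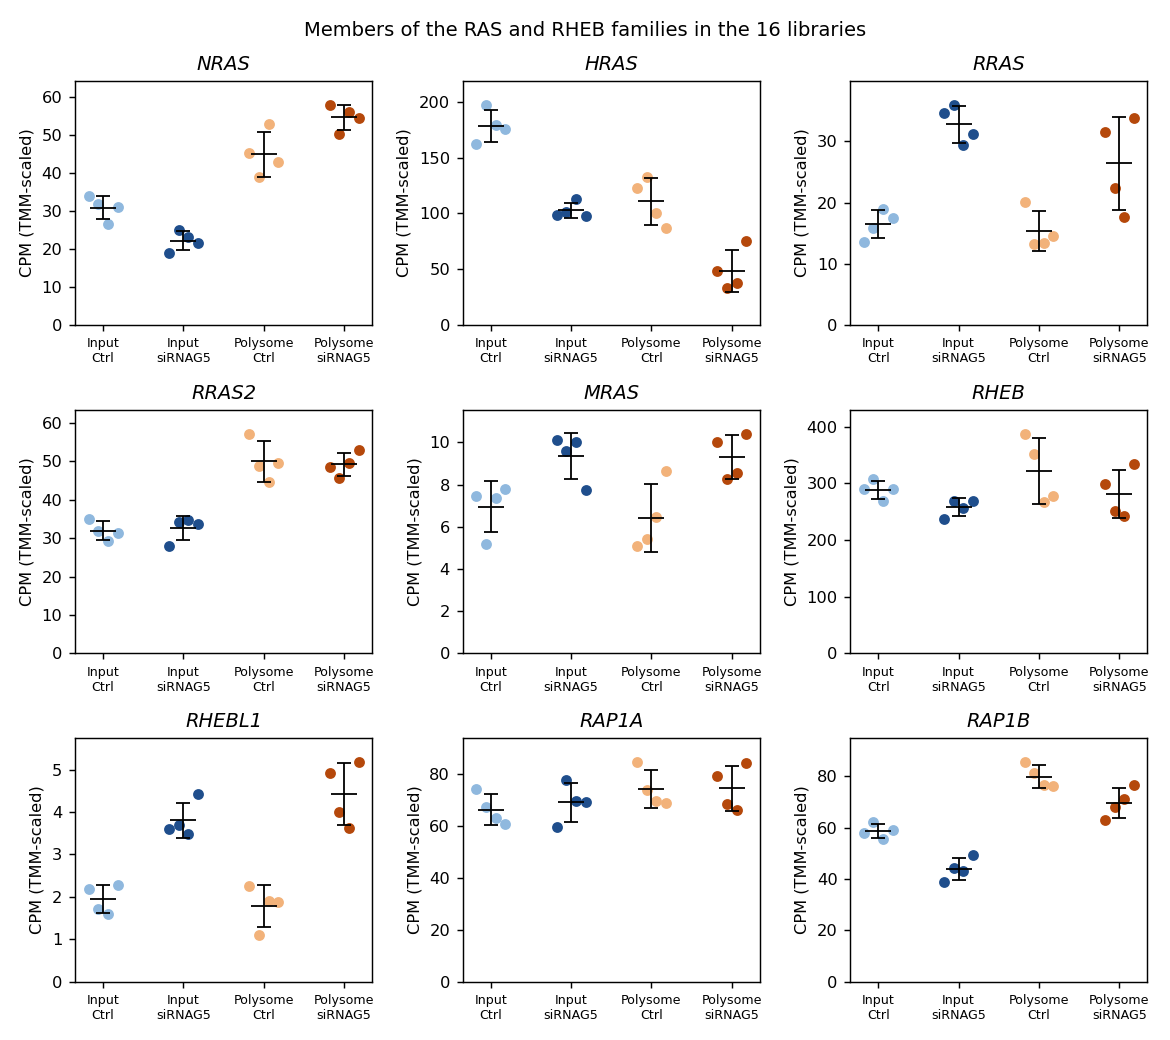
Level of each member in every library (points), in TMM-scaled CPM on axes that start at 0, with the group mean and SD in black. HRAS was lower in both siRNAG5 groups and RHEBL1 higher in both, whereas NRAS was lower in Input siRNAG5 (19.0 to 25.0 CPM) and highest in Polysome siRNAG5 (50.3 to 57.9 CPM).

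The calls of HRAS, RRAS and RHEBL1 were kept when any 1 of the 8 Input libraries was left out. NRAS reached a call without Input siRNAG5 replicate 2 (log2 FC -0.52) or without Input Ctrl replicate 3 (-0.53), and MRAS without replicate 4 of either group (0.53 and 0.51) or with library totals in place of TMM (0.55). Without the 2 Ctrl libraries that held liver genes, HRAS (-0.80), RRAS (1.16) and RHEBL1 (0.98) were called as before, and NRAS (-0.56) and MRAS (0.59) were called as well.

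In Polysome, the contrast that chose the members, HRAS was lower and RHEBL1, RRAS and MRAS were higher by more than the 0.5 limit on the log2 scale. NRAS was above Ctrl by less. These values are descriptions. Above the limit stood 3 of 9 members, against 14.6% of the 14420 genes tested, and below it 1 of 9, against 11.4%. RHEBL1, counted above the limit, was chosen for being higher in this contrast, so that count is partly fixed by the choice. Groups did not overlap for RHEBL1 (higher, as in 8.29% of genes) and for HRAS (lower, as in 10%).

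NRAS had 45.3, 38.9, 53.0 and 43.0 CPM in Polysome Ctrl and 57.9, 50.3, 56.2 and 54.6 in Polysome siRNAG5. Ctrl replicate 3 lay above the lowest siRNAG5 library, so the groups overlapped. The log2 FC was 0.32 (SE 0.13), between 0.27 and 0.41 with any 1 library left out, and 0.66, beyond the limit, with library totals in place of TMM. HRAS went the other way, with 123, 133, 100.0 and 87.2 CPM in Ctrl and 48.3, 33.4, 37.6 and 75.4 in siRNAG5 (log2 FC -1.16, SE 0.25).

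RHEBL1 was at 2.25, 1.10, 1.90 and 1.89 CPM in Polysome Ctrl, the lowest from 16 reads, and at 4.92, 4.00, 3.63 and 5.17 in Polysome siRNAG5 (log2 FC 1.35, SE 0.24). For RRAS the groups overlapped, with 20.1, 13.3, 13.4 and 14.6 CPM in Ctrl and 31.6, 22.4, 17.7 and 33.9 in siRNAG5, and the log2 FC was 0.82 (SE 0.22). MRAS had a log2 FC of 0.58 (SE 0.19) with ranges of 5.08 to 8.65 and 8.28 to 10.4 CPM. RRAS2 (0.02, SE 0.13) and RAP1A (0.05, SE 0.14) lay near 0, and RHEB (-0.16, SE 0.18) and RAP1B (-0.16, SE 0.13) just below it, both of these at 0.20 when library totals replaced TMM.

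**Figure D3:**
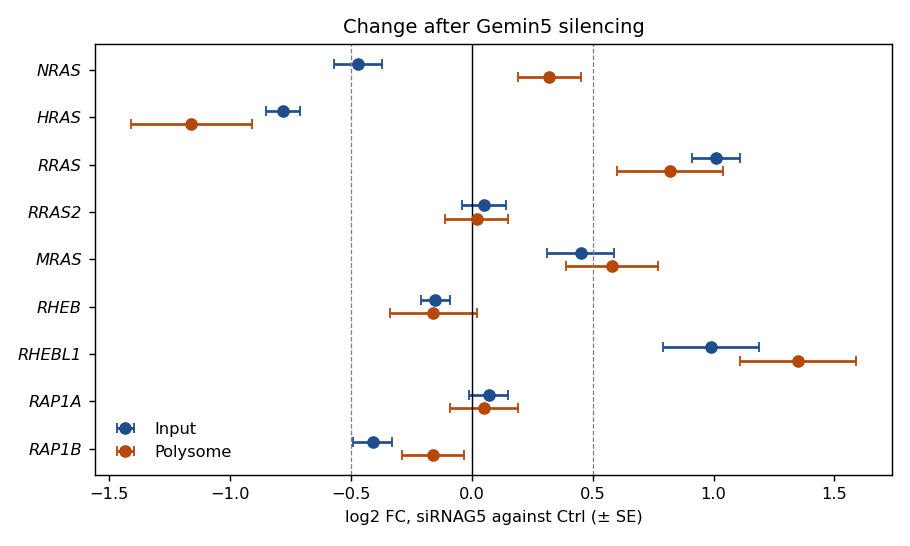
log2 FC of siRNAG5 against Ctrl with its SE for each member in Input and in Polysome, with dashed lines at the 0.5 limit. NRAS had values of opposite sign in Input and Polysome (-0.47 and 0.32), whereas HRAS, RRAS and RHEBL1 lay on the same side of 0 in both. With library totals in place of TMM, RHEB and RAP1B in Polysome moved to 0.20.

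How strongly each mRNA was represented in polysomes was asked by comparing Polysome with Input within the same cells. In Ctrl cells RRAS2 was higher in Polysome and HRAS lower, and in siRNAG5 cells RRAS2 and RAP1B were higher and HRAS lower. Tests covered 7 members, and NRAS and RHEBL1, chosen on their Polysome values, are described only. Called higher in Ctrl was 1 of 7, against 20.8% of 13666 genes, and called lower 1 of 7, against 18.8%. In siRNAG5 cells the counts were 2 of 7 higher, against 23.9% of 14795 genes, and 1 of 7 lower, against 21.2%.

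RRAS2, whose product is a close relative of RRAS with transforming activity, had 35.1, 32.0, 29.2 and 31.4 CPM in Input Ctrl and 57.2, 48.7, 44.6 and 49.6 in Polysome Ctrl. In silenced cells its levels were 28.0, 34.3, 34.7 and 33.8 CPM in Input and 48.6, 45.7, 49.5 and 53.1 in Polysome. The Polysome libraries were higher in both kinds of cells, by a log2 FC of 0.66 (SE 0.12, edgeR adjusted p = 0.000307) in Ctrl and 0.67 (SE 0.11, edgeR adjusted p = 0.000305) in siRNAG5.

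HRAS was lower in Polysome than in Input by a log2 FC of -0.67 (SE 0.14, edgeR adjusted p = 0.00102) in Ctrl and -1.01 (SE 0.20, edgeR adjusted p = 0.00145) in siRNAG5, with no overlap in either. These calls of HRAS depended on the scaling. Neither was kept with library totals in place of TMM, at -0.15 in Ctrl and -0.30 in siRNAG5. RAP1B, at 85.4, 81.2, 76.7 and 76.2 CPM in Polysome Ctrl and 62.9, 67.9, 71.1 and 76.7 in Polysome siRNAG5, was above its Input libraries in both. Its log2 FC was 0.46 (SE 0.11, edgeR adjusted p = 0.00233) in Ctrl, short of the limit (0.99 and called with library totals in place of TMM), and 0.75 (SE 0.11, edgeR adjusted p = 0.000182) in siRNAG5.

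For NRAS the log2 FC of Polysome against Input was 0.55 (SE 0.13) in Ctrl and 1.39 (SE 0.12) in siRNAG5, with no overlap in either kind of cells. For RHEBL1 it was -0.11 (SE 0.27) in Ctrl, turning to 0.43 with library totals, and 0.30 (SE 0.17) in siRNAG5, with overlap in both. RHEB (0.17 and 0.20) and RAP1A (0.17 and 0.19) were not called in either, with edgeR adjusted p-values between 0.181 and 0.353. With library totals in place of TMM both were called in both kinds of cells, RHEB at 0.69 and 0.93 and RAP1A at 0.71 and 0.92. RRAS had -0.09 and -0.24, which turned to 0.44 and 0.48 with library totals, and MRAS -0.10 and 0.08, which moved to 0.44 and 0.81, the second of them a call (edgeR adjusted p = 0.000309).

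**Figure D4:**
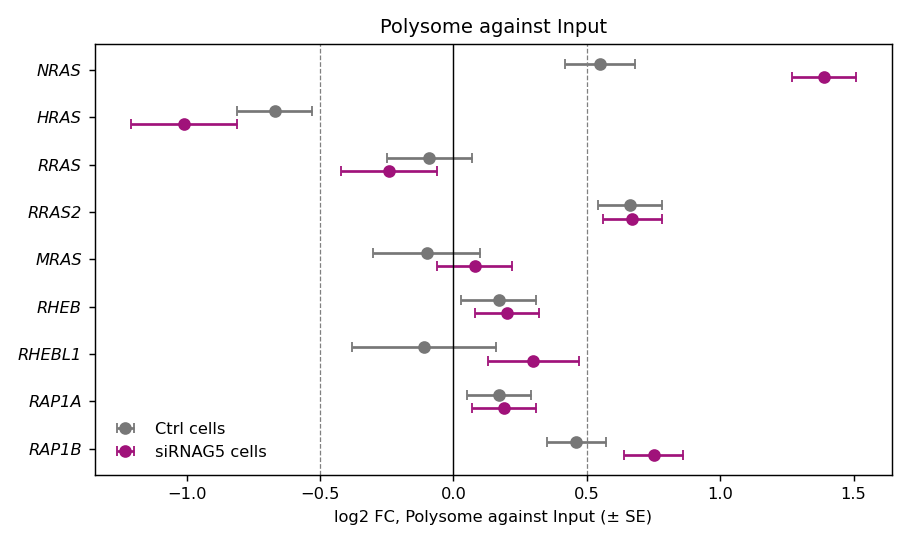
log2 FC of Polysome against Input with its SE for each member, in Ctrl and in siRNAG5 cells, with dashed lines at the 0.5 limit. RRAS2 (0.66 and 0.67) held the same place in both, NRAS lay at 0.55 and 1.39, and HRAS was the lowest in both. With library totals in place of TMM, RRAS in both, and MRAS and RHEBL1 in Ctrl, moved from below 0 to above it. HRAS then moved to -0.15 and -0.30 and was no longer called.

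These comparisons depend on how libraries are scaled. TMM factors were 0.741 to 0.852 in Input, 0.975 to 1.25 in Polysome Ctrl and 1.29 to 1.59 in Polysome siRNAG5. With library totals alone the median log2 FC of all genes moved by 0.53 for Polysome against Input in Ctrl, by 0.73 in siRNAG5, by 0.35 for silencing in Polysome and by 0.11 in Input. Relative to that median, HRAS was at -0.66 and -0.99 in Polysome against Input, RRAS2 at 0.69 and 0.72 and NRAS at 0.60 and 1.43. NRAS was at 0.28 for silencing in Polysome on the same footing. Centring on the median takes out much the same shift as TMM does, so these values are not a separate check of the scaling.

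Whether the response to silencing differed between the fractions was tested as the difference between the log2 FC of silencing in Polysome and that in Input. None of the 14958 genes tested was called by edgeR (0%), although 7.28% had an unadjusted p under 0.05, and DESeq2 called 18 genes higher and 11 lower. Of the 7 members tested, 0 had an unadjusted p under 0.05. Their differences ran from -0.40 (SE 0.27) for HRAS to 0.22 (SE 0.14) for RAP1B, with edgeR adjusted p-values of 0.809 and 0.792. As a description, the difference was 0.76 (SE 0.17) for NRAS, from 0.69 to 0.85 with any 1 of the 16 libraries left out, and 0.34 (SE 0.30) for RHEBL1.

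Paralogs were then compared within each library, as the log2 ratio of their counts (with 0.5 added), a measure that no scaling of libraries can move. In Input, the share of RRAS beside RRAS2, of RHEBL1 beside RHEB and of RAP1A beside RAP1B was higher in siRNAG5 cells. The change in NRAS against HRAS did not pass the test. Two-sided exact permutation tests over 4 and 4 libraries can give no p below 0.0286, and 6 ratios were tested.

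The log2 ratio RRAS2/RRAS was 1.36, 1.02, 0.63 and 0.84 in Input Ctrl and -0.31, -0.07, 0.24 and 0.11 in Input siRNAG5. The groups did not overlap, and the mean went down by 0.97 (exact p = 0.0286, adjusted 0.0343), from more reads on RRAS2 to about as many on both. Per kilobase of exon the mean of RRAS was already above that of RRAS2 in Input Ctrl (14.9 against 9.24 CPM per kb). RHEBL1/RHEB was -7.01, -7.45, -7.35 and -6.96 in Ctrl and -6.03, -6.18, -6.19 and -5.92 in siRNAG5, a difference of 1.12 (exact p = 0.0286, adjusted 0.0343). Since Input and Polysome share lysates, this ratio is not independent of the choice of RHEBL1. RAP1B/RAP1A was -0.36, -0.11, -0.18 and -0.05 in Ctrl and -0.62, -0.81, -0.69 and -0.49 in siRNAG5, a difference of -0.48 (exact p = 0.0286, adjusted 0.0343).

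NRAS/HRAS lay at -2.25, -2.63, -2.75 and -2.50 in Input Ctrl and -2.38, -2.01, -2.29 and -2.18 in Input siRNAG5. The groups overlapped, and the difference was 0.31 (exact p = 0.0857, adjusted 0.0857), between 0.24 and 0.41 with any 1 library left out. Both genes were lower in the silenced lysates. In Polysome, as a description, the ratio was -1.45, -1.77, -0.92 and -1.02 in Ctrl and 0.26, 0.59, 0.58 and -0.46 in siRNAG5, so that NRAS had more reads than HRAS in 3 of 4 silenced Polysome libraries and in no other library.

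Between the fractions of Ctrl cells, RRAS2/RRAS was higher in Polysome by 0.76 and RAP1B/RAP1A by 0.28, each with no overlap (exact p = 0.0286, adjusted 0.0343). The descriptions for silencing in Polysome were -0.77 for RRAS2/RRAS, 1.51 for RHEBL1/RHEB, both with no overlap, and -0.20 for RAP1B/RAP1A, with overlap. Polysome Ctrl replicate 2 had the lowest RHEBL1/RHEB ratio, -8.28, and without 1 library the difference of 1.51 ran from 1.25 to 1.64.

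**Figure D5:**
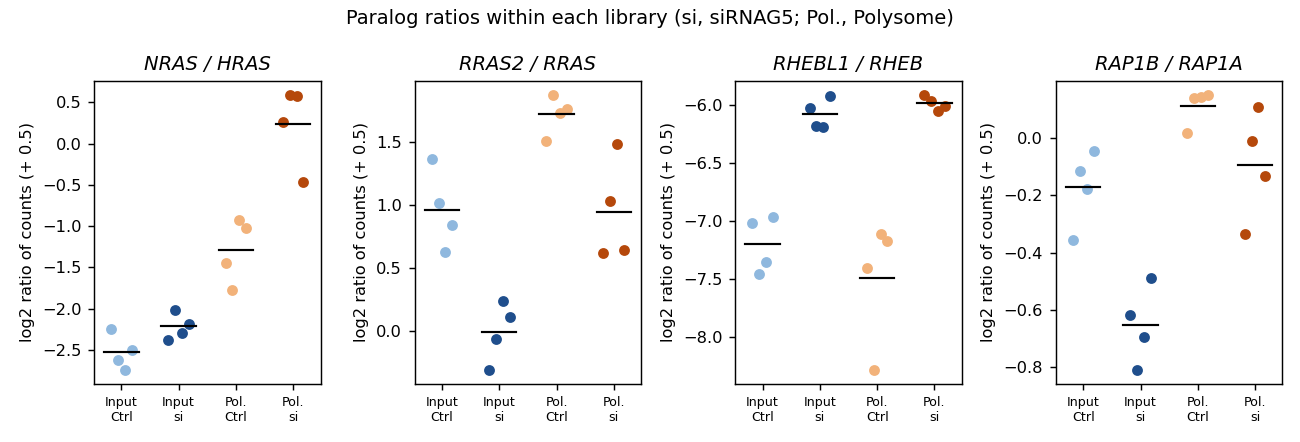
Within-library log2 ratios of counts of 4 paralog pairs in the 4 groups, one point per library with the group mean as a line. RRAS2/RRAS and RAP1B/RAP1A were lower in Input siRNAG5 than in Input Ctrl and RHEBL1/RHEB higher, while NRAS/HRAS lay above 0 only in 3 Polysome siRNAG5 libraries. The counts are not corrected for length, so a ratio of 0 does not mark equal levels.

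The genes whose pattern lay closest to that of NRAS over the 16 libraries, by the root mean square difference of centred log2 CPM among 14958 genes, were VAMP7 (0.135), DESI2 (0.140) and FAM8A1 (0.149). VAMP7 stood at -0.34, -0.65, 0.47 and 0.52 around its own mean in Input Ctrl, Input siRNAG5, Polysome Ctrl and Polysome siRNAG5, and NRAS at -0.22, -0.70, 0.32 and 0.60. For RHEBL1 the closest were MEIS3 (0.215), NR4A1 (0.233) and LINC01089 (0.252). Among the members themselves, RHEB and RAP1A were the closest pair (0.14), RRAS and RHEBL1 differed by 0.34, and HRAS and RHEBL1 were farthest apart (1.23).

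Other genes of RAS, RAP and RHEB signalling were taken from lists of 119 genes, chosen with earlier results of these data known. How far the shares called in the lists follow from that choice was not tested, and they are descriptions. In Input 90 were tested, 15 rose (16.7%, against 10.5% of all genes) and 2 fell (2.22%, against 6.02%), and their median log2 FC was 0.13, where that of all genes was 0.04. The rise was counted in 10 to 17 genes with 1 library left out. The lowest count, 10, came without Input Ctrl replicate 2, where 1197 of all 14423 genes were called higher. When all 16 libraries were fitted together 8 were called higher, where 990 of all 14958 genes were. With library totals 23 were called higher, where 2175 of all 14134 genes were.

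Among exchange factors, 3 of 7 tested rose in Input. RASGRP2, which loads RAP1 and responds to calcium, went from 4.15 ± 0.312 to 11.1 ± 1.18 CPM (log2 FC 1.43, edgeR adjusted p = 2.44e-09). SOS2, which loads RAS downstream of receptors, and RAPGEF4, a cAMP-gated factor for RAP1, rose by 0.74 and 0.68. Of 15 GAPs tested 4 rose, among them NF1, the neurofibromin that turns RAS off (0.87, edgeR adjusted p = 5.23e-05), RASA2 (0.71) and DAB2IP (0.66). Both lists held genes called higher, where 10.5% of all genes tested were. None in either was called lower, where 6.02% of all genes were, and lists of 7 and 15 are too small to read that as a result.

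Effectors and regulators followed in smaller numbers. RGL2, a RAS effector that loads RAL, rose from 5.63 ± 1.48 to 11.4 ± 1.43 CPM (log2 FC 1.02, edgeR adjusted p = 2.91e-06), and RASSF5, an effector of RAS and RAP1, fell from 3.59 ± 0.986 to 2.00 ± 0.373 CPM (-0.82, edgeR adjusted p = 0.00286). Of 5 genes of mTORC1, the target of RHEB, DEPTOR, an inhibitory subunit (0.60), and RPTOR, its scaffold (0.54), rose. SPRY2, a feedback inhibitor, rose too (0.62). So did 2 scarce genes, with p-values nearer the threshold. KSR1, a scaffold of the RAF cascade, went from 0.841 ± 0.145 to 1.47 ± 0.23 CPM (0.82, edgeR adjusted p = 0.0273). DUSP4, a phosphatase of MAP kinases, went from 1.91 ± 0.307 to 2.79 ± 0.326 CPM (0.55, edgeR adjusted p = 0.0395). Of 11 genes of lipid modification and trafficking, 1 fell and 0 rose, where 6.02% and 10.5% of all genes did. The 1 that fell was RCE1, the protease that trims these GTPases after prenylation, from 39.6 ± 5.77 to 26.0 ± 0.788 CPM (-0.60, edgeR adjusted p = 8.18e-06).

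In Polysome 97 of the listed genes were tested, 7 rose (7.22%, against 3.95% of all genes) and 1 fell (1.03%, against 4%), with a median of 0.17 where all genes had 0.03. As in Input, these shares are descriptions, since the lists were chosen with earlier results known. SOS2 (log2 FC 1.13), SPRY2 (0.84), RGL2 (0.83), DEPTOR (0.74), PTPN11, the phosphatase that acts between receptors and RAS (0.77), and RAP2C, another GTPase of the family (0.60), rose with no overlap, at edgeR adjusted p-values from 0.0112 to 0.0302. NF1 (0.98, edgeR adjusted p = 0.0444), named here after its value was seen, was the remaining one. PEBP1, an inhibitor of RAF, fell from 1060 ± 94.6 to 666 ± 70.5 CPM (-0.63, edgeR adjusted p = 0.0381).

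PTPN11 and RAP2C had log2 FC of -0.04 and 0.05 in Input (edgeR adjusted p = 0.853 and 0.813), and whether their changes differed between fractions is covered by the test above, in which edgeR called no gene and DESeq2 called 18 higher and 11 lower. The Polysome counts moved with single libraries. With 1 library left out, 2 to 11 listed genes rose and 0 to 3 fell, the lowest count without Polysome Ctrl replicate 2 and the highest without Polysome siRNAG5 replicate 4. Calls over all genes moved as well, to 76 higher and 113 lower in the first of these fits and to 687 and 836 in the second. Counts also fell to 4, 3 and 4 without Polysome siRNAG5 replicates 1, 2 and 3 and to 4 without Polysome Ctrl replicate 4. In the same order, 264, 267, 289 and 260 of all genes were called higher. With DESeq2 12 listed genes rose and 2 fell, where 840 of all 14420 genes rose and 1101 fell. With all 16 libraries in 1 fit 16 rose and 3 fell, where 1077 of all 14958 genes rose and 1520 fell. With library totals in place of TMM 22 rose and 0 fell, where 2307 of all 14420 genes rose and 207 fell.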

How the data were processed

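RNA of cytoplasmic lysates and polysomal fractions of siRNAG5 and Ctrl HEK293 cells was analysed in 16 libraries, grouped by the sample labels. Per the protocol, the authors prepared stranded poly(A) libraries, aligned reads to GRCh38 with STAR 2.5.3a and counted them per gene with QoRTs, with the strand setting not given in the sources used here. The authors deposited these read counts as whole numbers without normalization. Rows that name no gene entered neither library sizes nor tests, and among them multiply aligned reads made up 4.88 to 42.4% of the reads of a library. Counts of 2 libraries were identical in 0 pairs.

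The members and gene lists were chosen with earlier results of these data known. Named genes were the 9 members, GEMIN5, pseudogenes and neighbours that limit a member, listed pathway genes called with no overlap between groups (at most 4 per list and direction), and the 3 genes closest to NRAS and to RHEBL1. Counts were fitted in R 4.3.3 by the quasi-likelihood test of edgeR 4.0.16 after filterByExpr and TMM, with the 2 groups of each comparison, and with all 16 libraries for the difference between fractions. The SE is the log2 FC divided by the root of F. Positions, lengths and sequences come from GENCODE v44 on GRCh38, a later annotation than that used for counting, and proteins were translated from its canonical transcripts. Ratios were tested in Python 3.11.15 with scipy 1.17.1. Scripts were tested on simulated counts. Alternatives were DESeq2 1.42.0, RLE size factors, no filter, the replicate number as a block, 1 fit of all libraries, other pseudocounts and lengths, each library left out, and, chosen after seeing the data, library totals without TMM and the Input fit without the 2 Ctrl libraries that held liver genes.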

Additional observations from a re-analysis of the deposited data

Results flagged for a closer look

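NRAS was flagged because each siRNAG5 library was below the Ctrl mean in Input and each was above it in Polysome. NRAS had been chosen for a higher Polysome level, so the Polysome part of this flag follows from that choice. The flag was applied to the members only, and the share of all genes that meet it is not given. In Polysome the groups overlapped, with the highest Ctrl library at 53.0 CPM and the lowest siRNAG5 library at 50.3. The difference of the 2 log2 changes was 0.76 (SE 0.17), and since NRAS was chosen on its Polysome level, the difference was not tested. In 36 sets of 4 libraries, 2 held a library far from the others by Dixon's criterion, which chance reaches in about 1 in 20 groups. These were RRAS2 in Input siRNAG5 replicate 1, at 28.0 CPM (gap over range 0.866), and MRAS in Input Ctrl replicate 2, at 5.16 CPM (0.851).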

How the results depend on the processing

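Under DESeq2, RLE size factors, no filter, the replicate block and 1 fit of all libraries, the numbers of members called or beyond the limit stayed within 1.5 times those given. With library totals, members called rose from 2 to 4 for Polysome against Input in Ctrl and from 3 to 5 in siRNAG5, because the median of all genes moved, and HRAS was no longer called (-0.15 and -0.30). RRAS then turned to 0.44 in Ctrl and 0.48 in siRNAG5 and MRAS to 0.44 in Ctrl. MRAS in siRNAG5 was -0.0068 with all 16 libraries fitted together and between -0.0049 (without Input siRNAG5 replicate 4) and 0.12 with 1 library left out. Without the 2 Ctrl libraries that held liver genes, 5 members were called in Input, and RRAS2 (-0.03) and RAP1A (-0.02) changed sign, the cause of which was not tested. Same-numbered libraries did not deviate together in every pair (correlations from -0.53 to 0.483). Paired by replicate number, the replicate block left the ratio differences at -0.97, 1.12 and -0.48 in Input and at 0.76 and 0.28 between fractions, with an exact p of 0.13, the smallest that 4 pairs allow. Calls over all genes for silencing in Polysome went from 569 higher and 577 lower to 840 and 1101 (DESeq2), 825 and 941 (no filter), 1077 and 1520 (1 fit), 2307 and 207 (library totals), and to as few as 76 and 113 without Polysome Ctrl replicate 2. With library totals, calls were 2175 higher and 450 lower in Input, 6246 and 758 for Polysome against Input in Ctrl, and 8516 and 797 in siRNAG5. The difference between fractions, 0 calls, became 28 and 29 without the filter. Low counts limit RHEBL1, with 16 to 112 reads a library.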
